A study of Mus musculus with 18 samples.

Results

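Anti-Ox40 was compared with control Ig in splenic CD4 T cells that received no anti-CD3/CD28 beads. The members are the 6 of 18 libraries whose titles give spleen, no T cell receptor (TCR) stimulus and either antibody, 3 libraries for each, and all measured genes are described. All 6 groups of the series came from female NZB/W F1 mice, a hybrid of NZB and NZW that develops a lupus-like disease, aged 21 to 27 weeks and with 30 to 100 mg/dL proteinuria. Enriched CD4 T cells were cultured for 48 hours in IL-2 at 10 U/mL with 25 µg/mL of anti-Ox40, an IgG1, or of control Ig, an IgG1 isotype control. The other 12 libraries had the same antibodies with beads at 0.1 (low beads) or 1 (high beads) per cell. The labels do not say whether the 3 libraries of a group came from separate mice, separate cultures or 1 pool. The p-values therefore measure the spread between libraries, which may be technical. That spread was taken within all 6 groups of the series, bead cultures included.

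Ox40 (Tnfrsf4) is a costimulatory receptor of the TNF receptor superfamily that is induced on activated T cells and is present on regulatory T cells in the mouse. Its ligand (Tnfsf4) is carried by antigen-presenting cells. The receptor has no enzyme activity of its own, binds TRAF adaptors and signals to both branches of NF-kB, and it is known for prolonging the division, survival and cytokine output of T cells that also receive an antigen signal. Without beads the cultures received only IL-2, which signals through STAT5, and whatever activation the cells brought from the mouse.

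Without beads, 18 of 13075 tested genes were higher with anti-Ox40 (0.138% of those tested) and 0 were lower (0%). Most of the 18 encode parts of the machinery that copies and separates chromosomes, such as Top2a, Mki67, Uhrf1 and Rrm2. The other increases included Tnfrsf8, the gene of the TNF receptor CD30, and Scin, the gene of the actin-severing protein scinderin. Ratios of mean nRPKM for the 18 ran from 1.36 for Chaf1a to 3.38 for Scin. The unit nRPKM is the authors' normalized number of reads, divided by gene length and library size. Changes are differences of log2(nRPKM + 1), which understate the fold of genes at low levels. Calls required limma's 2-sided p, adjusted by Benjamini-Hochberg over the tested genes, to be under 0.05.

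The difference between the antibody groups was small across genes. The median log2 change was -0.0077, and 5% of genes lay above 0.17 or, at the other end, below -0.12. Only 5 genes exceeded 1 and 3 were under -1. At an unadjusted p under 0.05, 303 genes were higher (2.32%) and 216 lower (1.65%), together 3.97% of genes where 5% is the nominal level. That level supposes independent libraries, whereas libraries with the same replicate number, which is accession order only, deviated together (correlations of 0.216 to 0.274). The lowest adjusted p of any lower gene was 0.124. The anti-Ox40 libraries lay fully above those with control Ig for 533 genes (4.08%) and fully below for 672 (5.14%).

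**Figure D1:**
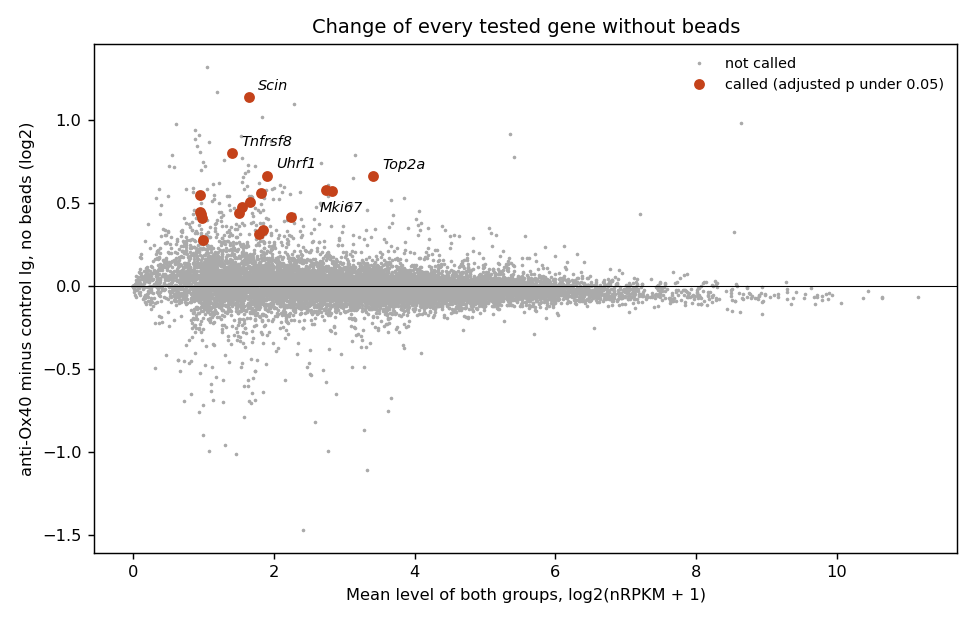
Log2 change with anti-Ox40 without beads (vertical axis) against mean expression as log2(nRPKM + 1) (horizontal axis) for the 13075 tested genes, with the 18 called genes marked. All 18 lie above 0, in the lower part of the expression range.

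As a check of the cells, Cd4 stood at 293 to 326 nRPKM with control Ig and 281 to 313 with anti-Ox40. Of the listed CD8 genes, Cd8a was at most 0.433, while Cd8b1 was at 5.47 to 6.31 with control Ig and 4.87 to 6.52 with anti-Ox40. The 13 tested CD4 T cell identity genes all had changes below 0 (-0.08 to -0.03) and none was called. Of them 3 were fully separated, where 5.14% of all tested genes lay fully below. Foxp3, the regulatory T cell factor, was at 83.3 to 99.1 nRPKM with control Ig and 82.1 to 100 with anti-Ox40. Transcripts of other cells were present in both groups. The summed B cell markers were 9.48, 9.24 and 37.8 nRPKM in control Ig replicates 1 to 3 and 9.44, 10.7 and 37.2 with anti-Ox40, so replicate 3 of each group stood apart. Monocyte and macrophage markers summed to 309 to 356 nRPKM with control Ig and 292 to 424 with anti-Ox40, the highest being anti-Ox40 replicate 3. Sums for the other marker lists, control Ig first, were 14.5 to 30.3 and 13.6 to 22.2 for neutrophils, 117 to 135 and 112 to 135 for dendritic cells, and 47.4 to 57.2 and 44.7 to 59.7 for NK cells. They were 79.9 to 99.9 and 79.0 to 109 for platelets, 135 to 162 and 137 to 151 for plasma cells, and 5.50 to 6.59 and 4.91 to 6.95 for CD8 T cells. Erythroid markers were at most 1.69 in sum, and 6 of 8 lung epithelial markers were listed at 0 in all 6 libraries, the list summing to at most 0.107. Nuclear-retained RNAs summed to 513 to 667 with control Ig and 587 to 858 with anti-Ox40, and immediate early and heat shock genes to 80.6 to 93.5 and 82.3 to 92.2. No member of these 13 lists was called. In bulk RNA, fewer cells of a type and less RNA per cell cannot be told apart.

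The genes of mitosis held the largest share of the increases. Top2a, which encodes the topoisomerase that untangles sister chromosomes, was at 6.74, 7.75 and 7.11 nRPKM with control Ig and at 10.9, 11.3 and 13.8 with anti-Ox40. The log2 change was 0.66 (SE 0.10, adjusted p = 0.0232). All 3 anti-Ox40 libraries lay above all 3 control libraries, as they did for each of the 18 genes. Mki67, the gene of the proliferation antigen Ki-67 that coats mitotic chromosomes, was at 3.94, 4.81 and 4.38 nRPKM with control Ig and 6.62, 7.23 and 7.23 with anti-Ox40 (0.58, SE 0.10, adjusted p = 0.0412). Tpx2, a spindle assembly factor that activates Aurora A, went from 1.60 ± 0.24 nRPKM (SD, n = 3) to 2.69 ± 0.20 (0.51, SE 0.08, adjusted p = 0.0257).

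Of the 7 listed mitotic kinesin genes with Kif symbols 3 were called. Not called were Kif4 (0.27, adjusted p = 0.158), Kif2c (0.39, adjusted p = 0.226), Kif20a (0.16, adjusted p = 1) and Kif23 (0.05, adjusted p = 1). Kif15, a motor that helps keep spindle poles apart, was at 1.40, 1.44 and 1.38 nRPKM with control Ig and 1.99, 2.35 and 2.48 with anti-Ox40 (0.44, SE 0.07, adjusted p = 0.0232). Kif11, the motor that first drives the poles apart, was at 1.31, 1.58 and 1.44 nRPKM against 2.17, 2.21 and 2.83 (0.47, adjusted p = 0.0412). Kif18b, which acts on microtubule ends, had 0.669, 0.654 and 0.738 nRPKM against 1.10, 1.15 and 1.50 (0.41, adjusted p = 0.0412). In all 3 genes anti-Ox40 replicate 3 was the highest library.

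The other called genes of these lists act on cohesin, at the kinetochore or with Aurora B. Espl1, the separase that cuts cohesin at anaphase, was at 0.651, 0.737 and 0.591 nRPKM with control Ig and 1.05, 1.28 and 1.42 with anti-Ox40 (0.44, SE 0.07, adjusted p = 0.0232). Esco2, the acetyltransferase that fixes cohesin on replicated DNA, was at 0.536, 0.696 and 0.475 nRPKM against 1.11, 1.32 and 1.46 (0.55, SE 0.09, adjusted p = 0.0235), a ratio of means of 2.28. Spdl1, which brings dynein to kinetochores, was at 0.610, 0.666 and 0.627 nRPKM against 1.18, 1.22 and 1.29 (0.45, SE 0.07, adjusted p = 0.0257). Cdca8, the borealin subunit of the Aurora B complex, went from 3.06 ± 0.24 nRPKM to 4.42 ± 0.49 (0.42, SE 0.08, adjusted p = 0.0497). These are low levels: with a gene model from GENCODE, the Esco2 values correspond to about 115 to 158 reads with control Ig and 257 to 275 with anti-Ox40, and the Espl1 values to about 188 to 220 and 323 to 350.

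Of 40 tested mitosis and spindle genes 7 rose and 0 fell, against 0.138% and 0% of all tested genes. Fully separated groups were found for 31, all higher, where 4.08% of all tested genes were separated higher and 5.14% lower. The median change of the 40 was 0.33, beside -0.0077 over all tested genes. Among the 16 chromosome condensation and mitotic chromatin genes 3 rose (Mki67, Esco2 and Cdca8) and 12 were separated, all higher, with a median of 0.26. Ube2c, which loads ubiquitin for the anaphase-promoting complex, had 2.72 to 2.85 nRPKM with control Ig and 4.03 to 5.69 with anti-Ox40 (0.55, adjusted p = 0.0616) and Nusap1, a spindle protein, 2.09 to 2.33 and 3.15 to 4.31 (0.52, adjusted p = 0.0566). Ccnb2 (cyclin B2) had a change of 0.61 with an adjusted p of 0.146. These 3 genes did not pass the test.

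**Figure D2:**
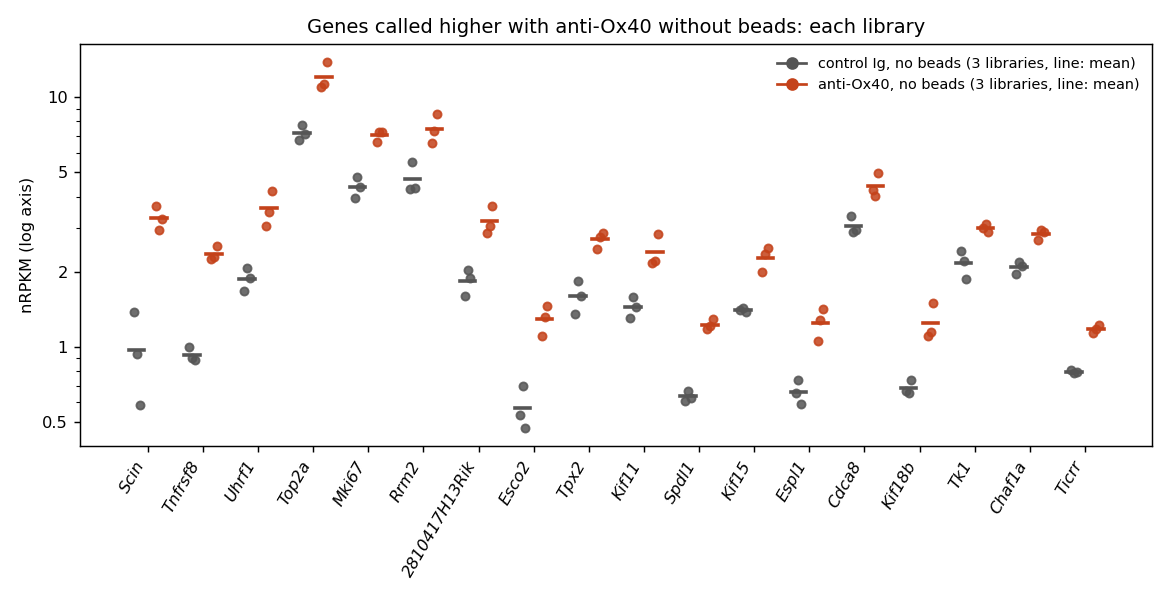
Expression of the 18 called genes in each of the 6 libraries without beads, as nRPKM on a log axis, with 3 control Ig points (grey), 3 anti-Ox40 points (orange) and a line at each group mean. For every gene the anti-Ox40 points lie above the control Ig points.

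Promoter sequence is shown for 6 of these genes to make visible the letters that cell cycle factors are known to bind: the cell cycle homology region (CHR, TTTGAA), the CCAAT box and E2F sites. The windows were picked after the motif search, are from the RefSeq annotation of GRCm38.p6, and run 5′ to 3′ on the gene's strand from 100 bases before to 20 after the annotated start. They are chr19:37376282-37376401 (plus strand) for Kif11, chr15:102296193-102296312 (plus) for Espl1, chr11:34833622-34833741 (minus) for Spdl1, chr11:102925105-102925224 (minus) for Kif18b, chr9:122950981-122951100 (plus) for Kif15 and chr9:65890223-65890342 (plus) for Pclaf, listed in the deposited table as 2810417H13Rik. Capitals mark a CHR, CCAAT or E2F match on either strand.
Kif11: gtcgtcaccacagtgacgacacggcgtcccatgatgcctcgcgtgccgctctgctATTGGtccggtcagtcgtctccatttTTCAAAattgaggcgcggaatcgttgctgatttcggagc
Espl1: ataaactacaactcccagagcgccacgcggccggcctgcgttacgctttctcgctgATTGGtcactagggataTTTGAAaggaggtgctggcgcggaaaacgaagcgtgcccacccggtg
Spdl1: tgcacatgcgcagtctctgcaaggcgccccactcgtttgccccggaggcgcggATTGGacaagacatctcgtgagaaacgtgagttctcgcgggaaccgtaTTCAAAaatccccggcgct
Kif18b: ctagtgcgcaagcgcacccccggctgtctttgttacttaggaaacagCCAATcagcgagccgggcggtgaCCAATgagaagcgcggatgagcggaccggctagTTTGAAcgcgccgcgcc
Kif15: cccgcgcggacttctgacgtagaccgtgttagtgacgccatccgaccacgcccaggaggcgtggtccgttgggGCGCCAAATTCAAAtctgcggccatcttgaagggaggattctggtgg
Pclaf: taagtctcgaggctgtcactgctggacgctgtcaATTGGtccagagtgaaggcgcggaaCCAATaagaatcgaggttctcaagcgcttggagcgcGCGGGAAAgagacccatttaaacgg

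Motif letters were counted in windows from 250 bases before to 50 after each start, on both strands. RefSeq windows were found for 16 of the 18 called genes. A CCAAT box together with a CHR was in 7 of the 16 (Cdca8, Espl1, Kif11, Kif18b, Mki67, Spdl1 and Top2a), against 6.95% of all 32851 windows. Counted with or without a CCAAT box, the CHR letters were in 9 of 16, these 7 included, against 17.9% of windows. CCAAT, with or without a CHR, was in 12 of 16, against 37.4%. The E2F letters searched (TTTGGCGC, TTTCCCGC, TTTGCCGC and TTTCGCGC) were in Kif15, Pclaf and Uhrf1, against 2.26%. An NF-kB motif was searched too and was in 0 of 16, against 1.63% of windows. At so low a share, 0 of 16 does not tell the called genes from the rest. Counts are of the 16 genes, which had 17 windows, with a match in any window counted. The percentages are of windows and were not limited to tested genes. A match describes letters in the window and is not a bound site.

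Genes of DNA synthesis and of the maintenance of chromatin rose in part. Uhrf1, which brings the maintenance DNA methyltransferase to newly copied DNA, was at 1.68, 2.07 and 1.89 nRPKM with control Ig and 3.06, 3.48 and 4.21 with anti-Ox40, a log2 change of 0.67 (SE 0.09, adjusted p = 0.0125). Rrm2, the ribonucleotide reductase subunit that is made in S phase, was at 4.28, 5.51 and 4.31 nRPKM against 6.58, 7.33 and 8.55 (0.57, SE 0.10, adjusted p = 0.0422). Tk1, the thymidine kinase of dividing cells, was at 2.42, 2.22 and 1.86 nRPKM against 3.01, 3.09 and 2.89 (0.34, SE 0.06, adjusted p = 0.0398). The PCNA-associated factor gene Pclaf, listed in the table as 2810417H13Rik, also rose, from 1.83 ± 0.22 nRPKM to 3.20 ± 0.43 (0.56, adjusted p = 0.0412). It carries a name that the rule for naming genes passes over, and is given here because it is 1 of the 18.

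Ticrr, which starts replication origins, had 0.805, 0.788 and 0.796 nRPKM with control Ig and 1.13, 1.18 and 1.23 with anti-Ox40 (0.28, SE 0.05, adjusted p = 0.0319), the smallest change that was called. Chaf1a, a subunit of the chromatin assembly factor behind the replication fork, had 1.96, 2.18 and 2.11 nRPKM against 2.67, 2.94 and 2.89 (0.32, SE 0.06, adjusted p = 0.0412). Of the 34 replication and licensing genes themselves 0 were called. Of them 7 were separated, all higher (4.08% of all tested genes were), and the median was 0.09. Pcna, the sliding clamp, was at 10.1 to 11.5 nRPKM with control Ig and 9.97 to 12.8 with anti-Ox40 and the groups overlapped. Mcm5, a helicase subunit, was at 15.1 to 17.0 and 18.3 to 19.3 (0.23, adjusted p = 0.641).

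In the nucleotide synthesis list 2 of 15 genes rose (Rrm2 and Tk1; median 0.04), and in that of DNA methylation and polycomb 1 of 8 (Uhrf1; median 0.10). Of 16 homologous recombination genes 0 were called and 11 were separated, all higher (median 0.19). Of all tested genes 4.08% were separated higher and 5.14% lower. Among 24 G1 cyclin, CDK and E2F genes 0 were called, 7 were separated higher and 1 lower (median 0.09). Myb, a transcription factor of cycling progenitors and lymphocytes, was at 13.1, 12.8 and 13.2 nRPKM with control Ig and 18.4, 18.4 and 17.8 with anti-Ox40 (0.45, adjusted p = 0.12). At an unadjusted p under 0.05, 9 replication, 10 recombination and 7 G1 genes were higher and 0 were lower. Of all tested genes 2.32% were higher at that level and 1.65% lower. Over these 7 lists together 13 of 153 tested genes rose, against 0.138% of all tested genes. Of the 153, 77 were separated higher and 1 lower, and the median was 0.16. The other theme lists had 2 called genes among 298, with 26 separated higher, 3 lower and a median of 0.0028. At an unadjusted p under 0.05, 13 of those 298 were higher and 1 lower, beside 77 and 0 of the 153. The cell cycle lists were chosen with earlier results of these data known.

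**Figure D3:**
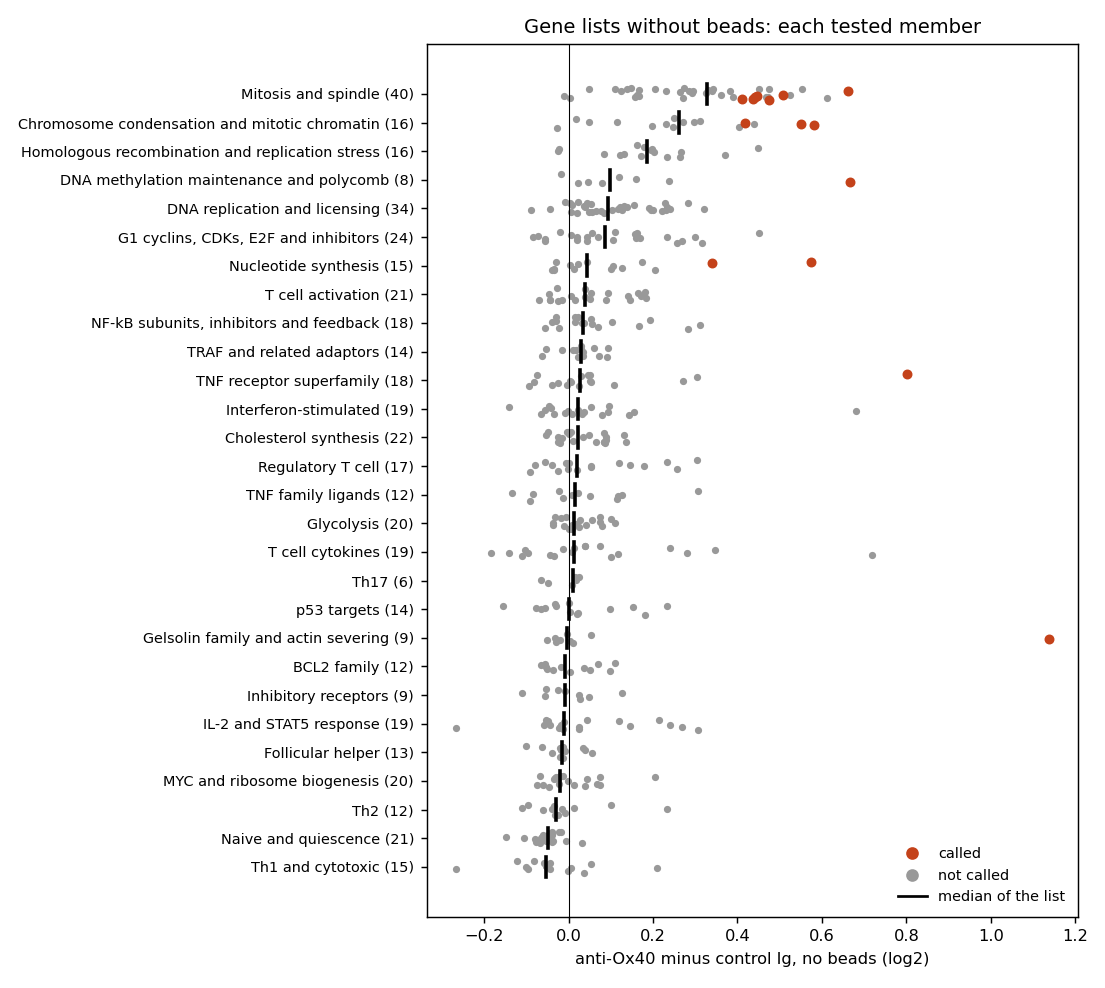
Log2 change with anti-Ox40 without beads for the tested members of the gene lists, with a point per gene and each list's median. The mitosis and chromosome condensation lists have the highest medians, 0.33 and 0.26, and most other lists centre near 0.

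Tnfrsf8 was the only called member of the 18 tested TNF receptors (median of the list 0.03). The gene (chromosome 4, 145267132 to 145315164, GRCm38) encodes CD30, a receptor of activated T cells that like Ox40 binds TRAF adaptors. It was at 0.998, 0.903 and 0.889 nRPKM with control Ig and 2.25, 2.29 and 2.54 with anti-Ox40, a ratio of means of 2.54 (log2 change 0.80, SE 0.14, adjusted p = 0.0412). By the GENCODE gene model this is about 107 to 122 reads against 233 to 272. The receptor gene itself, Tnfrsf4, was at 32.2, 28.6 and 30.4 nRPKM with control Ig and 32.2, 30.4 and 32.0 with anti-Ox40, so that the groups overlapped (change 0.05). Its ligand gene Tnfsf4 was at 0.685, 1.00 and 0.805 against 0.961, 1.13 and 0.846 (0.11). Tnfrsf9, the related receptor 4-1BB, was separated without being called, at 38.9 to 43.8 against 47.2 to 54.9 (0.30, adjusted p = 1).

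Downstream of the receptor, no TRAF, NF-kB or BCL2 family gene passed the test. Nfkb2, the subunit of the noncanonical pathway, was at 19.0, 22.1 and 18.9 nRPKM with control Ig and 24.2, 26.0 and 24.8 with anti-Ox40 (0.31, adjusted p = 0.757). Nfkbia, the feedback inhibitor, was at 73.7, 77.8 and 67.1 against 81.6, 83.7 and 84.5 (0.19, adjusted p = 1), and Bcl3, a nuclear cofactor of NF-kB, at 9.13 to 10.6 against 11.8 to 12.3 (0.28, adjusted p = 0.456). These 3 genes were the separated members among 18 tested (median 0.03), all higher, beside 4.08% of all tested genes. None of 14 TRAF and adaptor genes was separated (median 0.03), and 1 of 12 BCL2 family genes was (median -0.0072). Among 12 tested TNF ligands 0 were called and 2 were separated higher (median 0.02), with Lta, lymphotoxin alpha, at 28.4 to 33.2 against 35.7 to 42.4 (0.31).

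Scin had the largest change of the 18. The gene (chromosome 12, 40059769 to 40134228) encodes a calcium-dependent protein of the gelsolin family that cuts and caps actin filaments. It was at 1.38, 0.936 and 0.588 nRPKM with control Ig and 3.67, 2.93 and 3.24 with anti-Ox40, or 0.97 ± 0.40 and 3.28 ± 0.37 (SD, n = 3), with a log2 change of 1.14 (SE 0.15, adjusted p = 0.0125). This is about 64 to 147 reads against 257 to 385. The other tested members of its family did not pass the test (9 tested, median -0.0039).

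Activation, IL-2 and cytokine genes did not pass the test. Il2ra, the high-affinity chain of the IL-2 receptor, was at 81.4, 73.2 and 83.7 nRPKM with control Ig and 89.5, 80.5 and 94.1 with anti-Ox40 (0.15, adjusted p = 1). Cd69, an early activation marker, was at 7.13, 6.73 and 7.11 against 7.19, 7.90 and 7.51 (0.09). Both had adjusted p = 1. Of 21 T cell activation genes 0 were called (median 0.04) and of 19 IL-2 and STAT5 response genes 0 (median -0.01). Among 19 cytokine genes 0 were called (median 0.01). Il2 was at or below 0.30 nRPKM in all 6 libraries, and Il21 at 0.36 to 0.53 against 0.36 to 0.56. Il9 was at 0.053, 0 and 0.309 nRPKM with control Ig and 0.694, 1.43 and 0.494 with anti-Ox40, a change of 0.72 that did not pass the test. Of 21 naive and quiescence genes 20 had changes below 0, where 45.2% of all tested genes were above 0, and 0 were called (median -0.05). The 13 tested CD4 T cell identity genes were likewise all below 0 (median -0.06).

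The remaining lists gave 0 called genes each. Medians were -0.05 for 15 Th1 and cytotoxic genes, -0.03 for 12 Th2, 0.01 for 6 Th17, -0.02 for 13 follicular helper and 0.02 for 17 regulatory T cell genes. They were -0.0088 for 9 inhibitory receptors, 0.02 for 19 interferon-stimulated genes, 0.01 for 20 glycolysis genes, 0.02 for 22 cholesterol synthesis genes, -0.02 for 20 MYC and ribosome biogenesis genes and 0.0015 for 14 p53 targets.

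The bead cultures show how the same genes responded to the antibody with a TCR signal; they share no library with the comparison without beads. With low beads all 18 changes were above 0, where 51% of all genes were, and 8 of the 18 were called higher, against 6.15% of all genes (3.44% were lower). The 8 were Uhrf1, Spdl1, Ticrr, Tk1, Pclaf, Tnfrsf8, Chaf1a and Cdca8. With high beads 9 of the 18 were above 0 (51% of all genes) and 1 was called higher, Tnfrsf8, against 14.4% of all genes (11.6% were lower). The median change of the 18 was 0.49 without beads, 0.25 at low and 0.01 at high beads. Because the 18 were picked on the value without beads, these medians are a description. The 6 tested lung epithelial markers, at or near 0 without beads, were all called higher with anti-Ox40 at low beads, and their part in the bead values was not tested.

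The difference between antibody effects was then tested as an interaction, which uses again the values that picked the genes. High minus no beads was below 0 for all 18 and called lower for 16, against 4.7% of all tested genes (6.4% were higher). Without replicate 3 of both groups without beads it was called lower for 10 of the 18. Mki67 had the difference -0.77 (adjusted p = 0.00629) and Scin -1.08 (adjusted p = 0.00858). The exceptions were Tnfrsf8 and Rrm2 (-0.46, adjusted p = 0.0566). Low minus no beads was below 0 for all 18 and called for 0, the smallest adjusted p being 0.123, where 1 gene of all tested was called lower (0.00765%) and 0.26% were called higher.

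Tnfrsf8 was called higher with anti-Ox40 at each bead dose. Its mean went from 0.93 to 2.36 nRPKM without beads, from 19.5 ± 4.68 to 32.4 ± 6.51 at low beads and from 94.1 ± 11.6 to 148 ± 9.18 at high beads. The ratios of means were 2.54, 1.67 and 1.58. On the log2(nRPKM + 1) scale the changes were 0.80, 0.71 (adjusted p = 0.0116) and 0.66 (adjusted p = 0.00363). The difference between the effects was -0.09 (SE 0.20) for low and -0.15 (SE 0.20) for high minus no beads, with adjusted p = 0.857 and 0.708. These differences depend on the pseudocount, since the control level without beads is near 1 nRPKM. With a pseudocount of 0.1 the changes were 1.26, 0.74 and 0.66, and the differences -0.52 (SE 0.22, adjusted p = 0.238) and -0.60 (SE 0.22, adjusted p = 0.0849).

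Scin behaved otherwise in level. Its mean was 3.28 nRPKM with anti-Ox40 and no beads, the highest of the 6 groups, against 1.50 and 2.44 for control Ig and anti-Ox40 at low beads and 0.93 and 1.02 at high beads. For the other 17 genes the anti-Ox40 mean without beads was 6.72% to 16.4% of the control Ig mean at low beads. For Top2a, control Ig at low beads was at 173 nRPKM, beside 12.0 with anti-Ox40 alone.

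**Figure D4:**
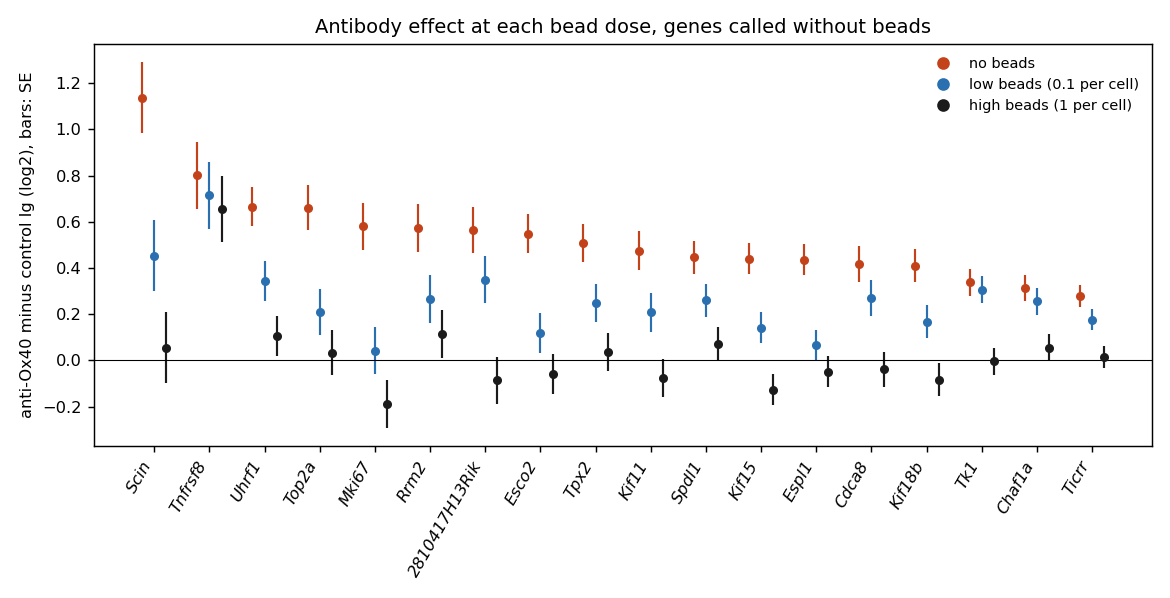
Log2 change with anti-Ox40 against control Ig for the 18 called genes at no, low and high beads, with bars for the SE. Tnfrsf8 lies between 0.66 and 0.80 at each dose on this log2(nRPKM + 1) scale (1.26 without beads at a pseudocount of 0.1), and most of the others lie near 0 at high beads.

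The size of the list of called genes depended on single libraries and on the libraries that gave the spread. With the 6 libraries without beads alone, 1 of the 18 stayed called and 3 genes were called in all. Anti-Ox40 replicate 3 was the highest of its group for 14 of the 18 genes. When it or control Ig replicate 3 was left out 0 genes passed limma's adjusted test. Other libraries mattered too: of the 18 genes, 2 stayed called without control Ig replicate 1 and 7 without control Ig replicate 2. With anti-Ox40 replicate 1 left out 15 stayed called, and with anti-Ox40 replicate 2 left out 2 did. All 18 changes stayed above 0, which leaving out libraries could not alter, since the groups were fully separated for each gene. At an unadjusted p under 0.05, 327 genes were then higher and 395 lower without anti-Ox40 replicate 3, and 287 higher and 196 lower without control Ig replicate 3. The replicate 3 libraries had the highest B cell marker sums, alike with control Ig (37.8) and anti-Ox40 (37.2). Anti-Ox40 replicate 3 also had the highest monocyte and macrophage sum (424) and the fewest reads per nRPKM over 1 kb (26.4). Whether any of these traits bears on the calls was not tested. Without both replicate 3 libraries the 18 changes ran from 0.26 to 1.00 and 0 were called. At an unadjusted p under 0.05, 285 genes were then higher and 318 lower. Of the 153 cell cycle genes 57 were higher and 1 lower at that level.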

How the data were processed

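RNA was measured by sequencing in 18 libraries. The deposited values are RPKM-type values with a further normalization between libraries by the authors (nRPKM, as the file's name gives the unit). Per the submitters' processing notes, GSNAP and GRCm38 were the aligner and the build. How reads were counted, and on which annotation, is not given in the sources used here. Sums over the 36528 entries were 273498 to 281836 nRPKM without beads. From the steps of microRNA values, an nRPKM of 1 over 1 kb stood for 26.4 to 36.3 reads in these 6 libraries (counting error only). Genes at nRPKM of 1 or more in at least 3 of 18 libraries were tested (13075). With limma 3.58.1 (R 4.3.3), a model with 6 group means was fitted to log2(nRPKM + 1) of the 18 libraries (eBayes with trend, 12 residual degrees of freedom). Tested on simulated data for the comparison without beads (13075 genes, 50 changed at each size), it called 42% of log2 changes of 0.3, 88% of 0.5, 94% of 1 and 72% of -0.5, with 10 false among 158 calls. The simulated noise was independent between libraries, whereas same-numbered libraries without beads deviated together in the data (correlations of 0.216 to 0.274). The simulated data also held more changed genes than the 18 called here, so these rates may not carry over. Since 3 against 3 libraries alone allow an exact permutation p of 0.1 at best, none is given.

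Named genes were those called, 9 genes linked to Ox40, the 3 members of each theme list with the smallest unadjusted p, and, among genes not called that were separated at an unadjusted p under 0.05, the 10 largest increases and decreases. Symbols starting with Gm, ending in Rik or turned into dates were passed over. The results of some genes that the rule names are left out of the text. Some list members outside this rule (Foxp3, Pcna, Mcm5, Ccnb2, Ube2c, Nusap1, kinesins and cell type markers) were added after their values were seen. The 28 theme and 13 marker lists and the members were chosen with earlier results of these data known. Alternatives were pseudocounts of 0.1 and 0.5, other filters, no trend, the 6 libraries alone, median centring, a replicate block and leaving out libraries.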

Additional observations from a re-analysis of the deposited data

Results flagged for a closer look

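The antibody effect differed between high beads and no beads, tested as a difference of effects with limma, for 16 of the 18 genes that rose without beads and for 13 more genes given in the text. Over all 112 genes that the naming rule takes, the difference was called for 43, against 6.4% of all tested genes higher and 4.7% lower. The values without beads that picked the 18 genes, and many of the other named genes, enter these differences. On the log2 scale, high minus no beads was -0.56 for Uhrf1, -1.08 for Scin, -0.63 for Top2a, -0.57 for Kif15, -0.49 for Espl1, -0.61 for Esco2 and -0.38 for Spdl1. It was -0.47 for Tpx2, -0.26 for Ticrr, -0.34 for Tk1, -0.49 for Kif18b, -0.55 for Kif11 and -0.77 for Mki67. It was -0.65 for 2810417H13Rik (Pclaf), -0.26 for Chaf1a and -0.46 for Cdca8. The adjusted p-values of these 16 ran from 0.00324 (Kif15) to 0.0496 (Chaf1a).

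In the other direction, the effect at high beads exceeded that without beads by 0.69 for Nfkb2 (adjusted p = 0.0133), 2.07 for Il9 (adjusted p = 0.0339), 0.78 for Cd69 (adjusted p = 0.00296) and 1.74 for Il21 (adjusted p = 0.0020). It was 0.78 for Lta (adjusted p = 0.0227) and 0.46 for Hk2 (adjusted p = 0.017). The effect at high beads was below that without beads for Myb (-0.63, adjusted p = 0.0125), Tbx21 (-0.35, adjusted p = 0.0364), P2rx7 (-0.53, adjusted p = 0.0182), Ccnb2 (-0.76, adjusted p = 0.0258), Nusap1 (-0.65, adjusted p = 0.0124), Kif4 (-0.36, adjusted p = 0.0213) and Ube2c (-0.60, adjusted p = 0.0226). None of these 13 genes was called without beads. For low minus no beads, the difference was called for 3 of the genes that the naming rule takes, all from the glycolysis list. It was 1.01 for Slc16a3 (adjusted p = 3.89e-05), 0.90 for Tpi1 (adjusted p = 0.000375) and 0.87 for Hk2 (adjusted p = 0.00135). Of the 20 tested glycolysis genes, 9 had a called difference between low and no beads. Of all tested genes 0.26% were called higher and 0.00765% lower.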

How the results depend on the processing

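The 18 increases kept their direction in all settings tried. Full separation of the groups fixed that direction for left-out libraries and pseudocounts, and filters, trend and block leave the change itself as it is. The number called varied. It was 19 higher with the filter on the 6 libraries without beads and 24 higher with median centring, with 0 lower in both. All 18 stayed called in both of these settings, with pseudocounts of 0.1 and 0.5 and with the replicate block. Of the 18, 6 stayed called with no filter and 9 with no trend. Against 18 higher and 0 lower, there were 85 and 1 with a pseudocount of 0.1, 32 higher with 0.5, 6 and 3 with no filter, 10 higher with no trend and 3 higher with the 6 libraries alone. Of these 3, 1 was among the 18, Tnfrsf8 (adjusted p = 0.031), which lost its call with no filter (0.0814), with no trend (0.0584) and with any 1 library left out (0.0625 to 0.213). Leaving out 1 library without beads gave 0 to 30 higher and 0 lower, 0 without replicate 3 of either group, and leaving out both of those (chosen after seeing the data) gave 0. Replicate numbers are accession order only: a replicate block gave 59 higher, every library correlated best with its own number, and same-numbered libraries without beads deviated together at 0.216 to 0.274. For low minus no beads, 34 genes were called higher and 1 lower. The lower count was 4 with a pseudocount of 0.1, 4 with no filter, 3 with no trend, 4 with the replicate block and 3 without both replicate 3 libraries. Leaving out 1 library gave 19 to 57 higher and 0 to 10 lower. For high minus no beads, 837 were higher and 614 lower. With no filter 391 were lower, without both replicate 3 libraries 401 were higher and 267 lower, and leaving out 1 library gave 509 to 758 higher and 362 to 523 lower. The changes of 12 genes that were not called crossed 0. With 1 library left out, the range was -0.255 to 0.0137 for Tigit, -0.134 to 0.0177 for Ctla4, -0.165 to 0.0301 for Ascl2, -0.123 to 0.0105 for Tbx21 and -0.0164 to 0.118 for P2rx7. It was -0.145 to 0.0798 for Il1r1, -0.00849 to 0.103 for Il21, -0.0899 to 0.0590 for Il2, -0.0321 to 0.0998 for Rora and -0.0547 to 0.00487 for Flii. Without both of the replicate 3 libraries, Hk2 was at -0.00112, Tpi1 at -0.00167 and Ctla4 at 0.00112. The causes were not tested.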

Other observations

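The largest changes that did not pass the test were mostly small RNA entries, which made up 9 of the 10 largest increases and 9 of the 10 largest decreases among separated genes at an unadjusted p under 0.05. They included Mir6952 (1.32) and Mir194-1 (1.17) upwards and Bc1 (-1.47) and Snord8 (-1.01) downwards. Reads of a host transcript cannot be told apart from those of a small RNA inside it. The other entry among the increases was Il1r2, the decoy receptor for interleukin 1, at 1.10, 0.90 and 1.02 nRPKM with control Ig and 2.51, 2.51 and 3.31 with anti-Ox40 (0.91, adjusted p = 0.405).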
